A study of Homo sapiens with 16 samples.

Results

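The transcripts described here encode 10 feedback inhibitors of receptor tyrosine kinase and ERK signaling: the phosphatases DUSP4, DUSP5, DUSP6 and DUSP7, the Sprouty proteins SPRY2 and SPRY4, their relatives SPRED1 and SPRED2, and the pleckstrin homology-like proteins PHLDA1 and PHLDA2. They were found by gene symbol among the 18190 symbols of the expression table. Of their 11 probes, out of 20589, 1 was used per gene, the detected probe with the highest mean signal. The cells were MCF10HER2 (MCF-10HER-2 in the labels), a line made from the nontransformed breast epithelial line MCF10A by stable HER2 overexpression. Parallel cultures received the HER2 kinase inhibitor CP724,714 at 1 µM in renewed medium that held EGF and no insulin, and RNA was taken every 3 h from 0 to 45 h. The series has 16 arrays, 1 per time point, and only the 0 h culture was untreated. There are no replicates, so every error below comes from the scatter of neighbouring time points, and an effect of the inhibitor cannot be told apart from an effect of the renewed medium or of time in culture.

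Signaling from HER2 and EGF receptors passes through RAS, RAF and MEK to ERK, and active ERK induces transcripts whose proteins dampen the same pathway. Dual-specificity phosphatases remove phosphate from ERK and related kinases, Sprouty proteins act between the receptor and RAF, and SPRED proteins bring the RAS inhibitor neurofibromin to the membrane. PHLDA1 is a small growth factor-induced protein that has been described as a restraint on HER family receptors, and PHLDA2 is an imprinted relative known for restraining placental growth. The course was read to see which of these transcripts fell after the inhibitor was added, when they fell, and which returned.

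PHLDA1 and SPRY2 fell and stayed low, DUSP5 fell and then rose again to near its starting level, and PHLDA2 fell and was still lower at the end. Under median scaling of the arrays, the falls between 3–9 h and 12–21 h were no longer called for any of these genes. PHLDA2 was then not called lower at the end either, and no step down of DUSP5 was called. The lower levels of PHLDA1 and SPRY2 at 36–45 h and the late rise of DUSP5 were still called. For DUSP4, SPRED1 and SPRED2, which were detected on all arrays, no fall was called. DUSP6, DUSP7 and SPRY4 lay at the lower end of detection, where the arrays could show little. The letters of the 250 bases before the transcription start are shown for PHLDA1 and SPRY2, the members that fell furthest and whose courses were most alike. Both come from RefSeq on GRCh38.p14 and are written 5′ to 3′ on the strand of the gene, which is the minus strand for each. PHLDA1 is at chr12:76031777-76032026 and SPRY2, at the most upstream of its 3 listed starts, is at chr13:80341127-80341376. Capitals mark motif matches on either strand.
PHLDA1: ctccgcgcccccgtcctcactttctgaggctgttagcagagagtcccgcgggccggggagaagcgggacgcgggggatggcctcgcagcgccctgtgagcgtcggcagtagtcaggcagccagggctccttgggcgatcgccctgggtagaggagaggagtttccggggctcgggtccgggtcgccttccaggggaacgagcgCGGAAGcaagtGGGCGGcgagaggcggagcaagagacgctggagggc
SPRY2: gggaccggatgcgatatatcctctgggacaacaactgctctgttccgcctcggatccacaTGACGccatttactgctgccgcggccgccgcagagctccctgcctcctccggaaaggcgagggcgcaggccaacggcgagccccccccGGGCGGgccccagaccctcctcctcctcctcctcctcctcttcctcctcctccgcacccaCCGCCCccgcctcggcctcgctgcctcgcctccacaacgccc

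The PHLDA1 window holds an ETS core, CGGAAG, 47 bases before the start and a GC box, GGGCGG, 36 bases before it. The SPRY2 window holds a CRE core, TGACG, at 190 bases and GC boxes at 102 and 42 bases, the nearer one on the opposite strand. The motifs do not overlap. Of 35116 promoter windows of the same length, 16.5% hold the ETS core, 21.2% the CRE core and 42.6% the GC box. Neither window holds the AP-1 letters TGANTCA, found in 6.57% of windows, or the serum response element core known as the CArG box, found in 1.16%. Entries were listed for 7 of the 10 genes. Among the others, the DUSP6 window has an ETS core 62 bases before the start on the opposite strand, and SPRY4 has a CRE core at 68 bases. GC boxes lie at 94 and 44 bases for DUSP7, at 183 for SPRY4 and at 31 for SPRED1. The SPRED2 windows and those at the other SPRY2 starts hold no match. These matches describe letters in a window, and binding was not measured.

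Values are log2 signals after quantile normalization unless another scaling is named. A difference of 1 unit is 2-fold, and levels are not compared between genes. Between 10363 and 11436 probes were detected on an array, meaning that their detection p was under 0.05. The 9 h and 18 h arrays were the dimmest, with upper quartile intensities of 397 and 418 against 553 to 804 on the others, and the array background stepped up from 136 to 149 through 21 h to 164 to 174 from 24 h on. Of 10 mammary epithelial markers in the table, 6 were detected on all arrays (KRT5, KRT17, KRT18, KRT8, ITGB4 and TACSTD1), and their list summed to 59500 to 138000 intensity units. The KRT14 and LAMB3 probes were detected on fewer than 3 arrays. Of 6 fibroblast markers, 4 were not detected on any array and the list summed to 963 to 1480, against 1330 to 3270 for 5 leukocyte markers and 692 to 1090 for 4 endothelial ones. From these lists DCN (fibroblast), CD14 and CD68 (leukocyte) and PECAM1 (endothelium) were detected on all arrays. The sums are over lists of unlike length. ERBB2, the gene of the targeted kinase, had probes detected on 7 arrays and 1 array, at 7.91 to 8.01. The detection p of the former did not follow its intensity on 6 arrays, and whether the probes cover the introduced copy is not known.

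For the tests, the course was split into 0 h, 3–9 h, 12–21 h, 24–33 h and 36–45 h, and a smooth curve and a straight line in time were fitted to each of 12321 detected probes. All 10 genes had a tested probe, and 8 of them were detected on all 16 arrays. A time-dependent course was found for 5 of the 10 genes (PHLDA1, SPRY2, DUSP5, PHLDA2 and SPRED2), against 41.9% of all tested probes, and for 4 to 6 genes when 1 array was left out. A straight-line fall was called for 4 members against 11.5% of probes, namely PHLDA1, SPRY2, DUSP6 and DUSP7 (2 members without the 6, 42 or 45 h array). A straight-line rise was called for 0 members against 12.9%, with 0 also at an unadjusted limma p under 0.05. The median line change of the members was -0.09 over 45 h with 7 of 10 below 0, and that of all tested probes was 0.00. The 7 include DUSP6, DUSP7 and SPRY4, which lay at the lower end of detection. The median of the members lies between DUSP6 (-0.13) and DUSP7 (-0.04). DUSP7 was detected on 4 arrays, none of them at 36–45 h.

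**Figure D1:**
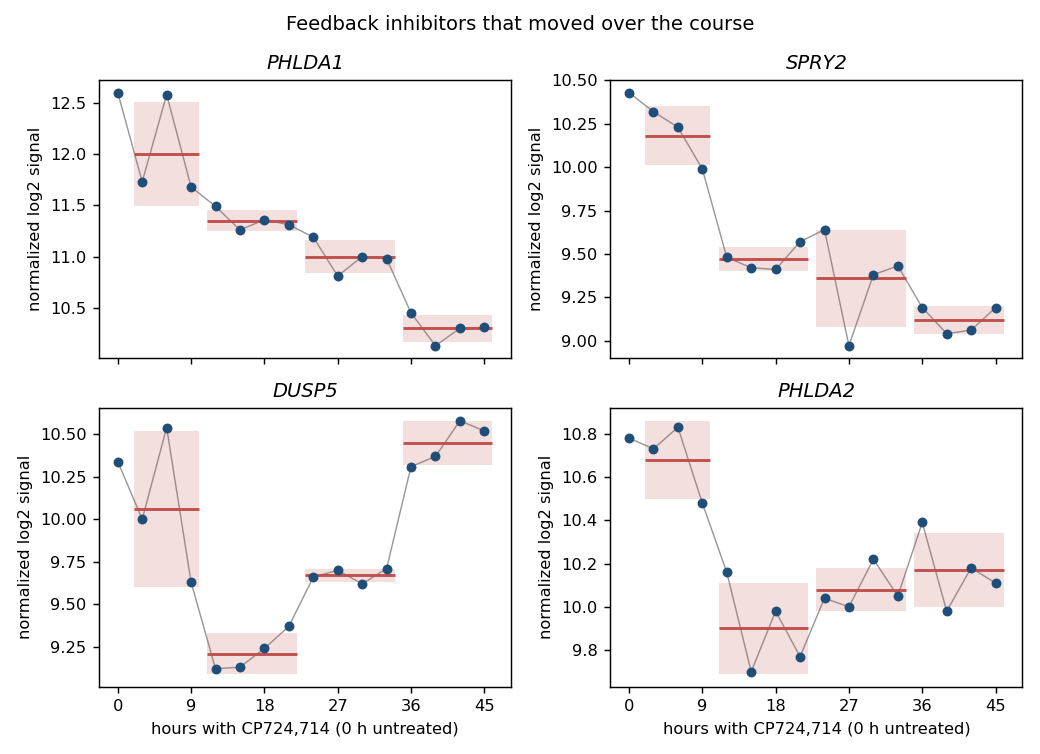
Normalized log2 signal (y axis) of PHLDA1, SPRY2, DUSP5 and PHLDA2 against hours with CP724,714 (x axis). Each point is 1 array, filled where detected, and red lines with bands give the mean ± SD of the arrays of a phase. PHLDA1 steps down to 10.30 at 36–45 h, SPRY2 settles near 9.12, DUSP5 dips to 9.21 and returns to 10.45, and PHLDA2 settles near 10.17.

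PHLDA1 showed the largest change of the members. Its signal was 12.60 at 0 h, 11.73, 12.58 and 11.68 at 3, 6 and 9 h, and 11.49, 11.26, 11.36 and 11.31 from 12 to 21 h. It went on to 11.19, 10.81, 11.00 and 10.98 from 24 to 33 h and to 10.45, 10.13, 10.30 and 10.31 from 36 to 45 h. All 15 treated arrays were below the untreated one, the 6 h array by the least, and no array of a later phase overlapped those of the phase before it from 12 h on. Under median scaling the phases before 36 h did overlap, with 11.11 at 3 h below 11.63 at 12 h, and 11.25 at 18 h below 11.39 at 24 h. In deposited intensity the probe ran from 1430 to 7560.

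The level of PHLDA1 at 36–45 h was 10.30 ± 0.13 (SD, n = 4 time points). Its difference from 0 h was -2.30 (SE 0.25, 95% interval -2.82 to -1.79), a 4.94-fold lower signal with limma adjusted p = 5.04e-06. The straight-line change over 45 h was -2.15 (SE 0.21, limma adjusted p = 1.84e-06), and it was seen on both sides of the background step, at -1.26 within 0–21 h (SE 0.32, limma adjusted p = 0.0335) and -0.99 within 24–45 h (SE 0.18, limma adjusted p = 0.00104). With a block for each run of 4 successive arrays it was -1.16 and not called (limma adjusted p = 0.65). The step at 3–9 h was -0.60 (SE 0.25, limma adjusted p = 0.133) and was not called. Without the 6 h array, where PHLDA1 stood at its starting level, it was -0.90 and was called (limma adjusted p = 0.00376).

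SPRY2, which restrains receptor signaling ahead of RAF, followed a similar course over a smaller range. Its signal was 10.43 at 0 h and 10.32, 10.23 and 9.99 at 3, 6 and 9 h. It was 9.48, 9.42, 9.41 and 9.57 from 12 to 21 h, 9.64, 8.97, 9.38 and 9.43 from 24 to 33 h, and 9.19, 9.04, 9.06 and 9.19 from 36 to 45 h. Every treated array was below 0 h, and those from 12 h on were below all of 0 to 9 h. Under median scaling the latter overlapped, with 9.43 at 9 h and 9.88 at 24 h. At 36–45 h SPRY2 was 9.12 ± 0.08 (SD, n = 4 time points), with a difference of -1.31 from 0 h (SE 0.19, 95% interval -1.70 to -0.91), a 2.48-fold lower signal with limma adjusted p = 7.48e-05. Its line change was -1.26 (SE 0.19, limma adjusted p = 1.28e-04). Most of it lay in 0–21 h, at -1.12 (SE 0.24, limma adjusted p = 0.0189), while 24–45 h gave -0.33 (SE 0.17, limma adjusted p = 0.183). With the same block for runs of 4 arrays the SPRY2 line change was -0.52 and not called (limma adjusted p = 0.783). Over the 16 arrays SPRY2 and PHLDA1 had a Pearson r of 0.91, the arrays being points of 1 time course.

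DUSP5, a nuclear phosphatase specific for ERK, fell and came back. Its signal was 10.34 at 0 h, 10.00, 10.54 and 9.63 at 3, 6 and 9 h, and 9.12, 9.13, 9.24 and 9.37 from 12 to 21 h. It then stood at 9.66, 9.70, 9.62 and 9.71 from 24 to 33 h and at 10.31, 10.37, 10.58 and 10.52 from 36 to 45 h. The 4 arrays of 12–21 h were the lowest of the course, those of 24–33 h lay above all of them, and those of 36–45 h reached the 0 h level without overlapping the phase before. Under median scaling the lowest array was that of 9 h, at 9.11, and 3 h stood at 9.27, so the start of the low depended on the scaling. The order of the phases from 12 h on was the same.

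The step of DUSP5 down at 12–21 h was -0.84 (SE 0.15, limma adjusted p = 3.19e-04), a 1.79-fold lower signal than at 3–9 h. The step at 24–33 h was 0.46 (SE 0.14, limma adjusted p = 0.165) and was not called, and that at 36–45 h was 0.77 (SE 0.14, limma adjusted p = 0.00113), 1.71-fold higher. From its low to the end DUSP5 rose by 1.23 (SE 0.14, limma adjusted p = 6.15e-06), or 2.35-fold, a comparison added after the values were seen. At 36–45 h it differed from 0 h by 0.11 (SE 0.22, 95% interval -0.36 to 0.58, limma adjusted p = 0.774). Within the arrays on either side of the background step the line change was -1.28 (0–21 h, limma adjusted p = 0.0372) and 1.11 (24–45 h, limma adjusted p = 2.61e-04). The moves between neighbouring arrays were -0.51 from 9 to 12 h, 0.28 from 21 to 24 h and 0.60 from 33 to 36 h, while none inside a phase from 12 h on was over 0.21. Whether arrays were handled in groups of 4 time points is not given in the sources used here, and such handling cannot be told apart from these phases.

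PHLDA2 fell in the same phase as DUSP5 and stayed below its starting range. Its signal was 10.78 at 0 h, 10.73, 10.83 and 10.48 at 3, 6 and 9 h, and 10.16, 9.70, 9.98 and 9.77 from 12 to 21 h. It was 10.04, 10.00, 10.22 and 10.05 from 24 to 33 h and 10.39, 9.98, 10.18 and 10.11 from 36 to 45 h. All arrays from 12 h on were below those of 0 to 9 h. The step at 12–21 h was -0.77 (SE 0.13, limma adjusted p = 1.26e-04). At 36–45 h PHLDA2 differed from 0 h by -0.61 (SE 0.18, limma adjusted p = 0.02), a 1.53-fold lower signal, and its difference from 12–21 h was 0.26 (limma adjusted p = 0.105). Its line change of -0.55 was not called (limma adjusted p = 0.0925). Under median scaling its arrays overlapped, with 9.91 at 9 h and 10.47 at 30 h. Neither the 12–21 h step (-0.19, limma adjusted p = 0.437) nor the difference from 0 h at 36–45 h (-0.52, limma adjusted p = 0.185) was then called.

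**Figure D2:**
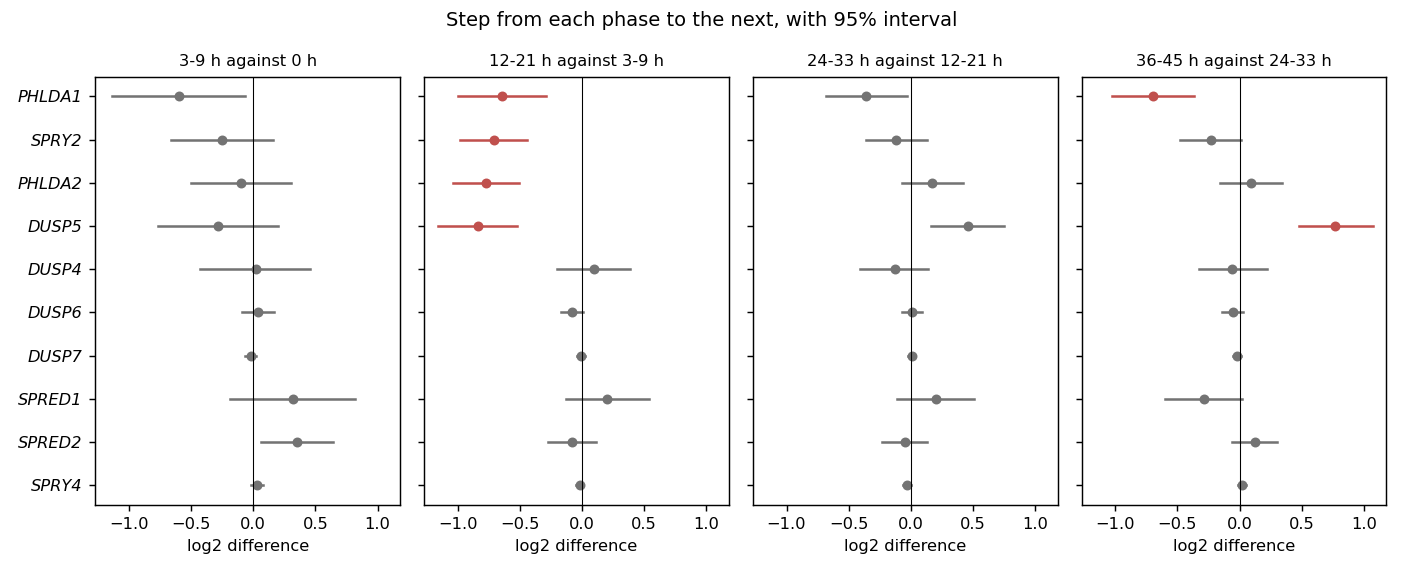
Log2 difference (x axis) of each phase from the one before it, for the 10 genes (y axis), with the limma estimate as a point and its 95% interval as a bar. Red marks a limma adjusted p under 0.05: PHLDA1, SPRY2, PHLDA2 and DUSP5 at 12–21 h, and PHLDA1 at -0.70 and DUSP5 at 0.77 at 36–45 h.

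Set side by side, with quantile normalization, falls were called at 12–21 h for 4 genes and again at 36–45 h for PHLDA1. At 3–9 h against 0 h, limma called 0 of the 10 genes, with 2 at an unadjusted p under 0.05 (PHLDA1 lower and SPRED2 higher), against 12.3% of all probes called, 7.17% lower and 5.18% higher. At 12–21 h against 3–9 h it called 4 lower, against 20.3% of probes, namely DUSP5, PHLDA2, SPRY2 at -0.71 (SE 0.13, limma adjusted p = 3.17e-04) and PHLDA1 at -0.64 (SE 0.17, limma adjusted p = 0.0056). At 24–33 h against 12–21 h it called 0, with 3 at an unadjusted p under 0.05, against 0.584% of probes, and 1 (DUSP5) without the 6 h or the 9 h array. At 36–45 h against 24–33 h PHLDA1 fell again, at -0.70 (SE 0.16, limma adjusted p = 0.00475), against 8.45% of probes called lower, and DUSP5 rose, against 8.86% called higher. PHLDA1 was thus the member called lower at both steps, as were 0.795% of probes, and DUSP5 the member called lower and then higher, as were 3.43%. At 36–45 h against 0 h, PHLDA1, SPRY2 and PHLDA2 were lower, 3 of 10 against 13.8% of probes, and 0 were higher against 13.5%, with 1 (SPRED2) higher at an unadjusted limma p under 0.05. Against 12–21 h, PHLDA1 at -1.06 (limma adjusted p = 7.88e-05) and SPRY2 at -0.35 (limma adjusted p = 0.0342) were lower at 36–45 h, with 13.8% of probes, and DUSP5 was higher, with 14.3%. The SPRY2 call was lost without any of 6 arrays and under median scaling (limma adjusted p = 0.126).

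The step in which the early fall lies depended on how the arrays were scaled. Under median scaling, PHLDA1 differed from 0 h by -1.19 already at 3–9 h (limma adjusted p = 0.0164), with SPRY2 at -0.75 (limma adjusted p = 0.0576) and DUSP5 at -0.76 (limma adjusted p = 0.0926). None of the 4 falls at 12–21 h was then called, DUSP5 being at -0.31, PHLDA2 at -0.19, SPRY2 at -0.13 and PHLDA1 at -0.10, with limma adjusted p of 0.245, 0.437, 0.619 and 0.757. In the same comparison DUSP4 at 0.62 (limma adjusted p = 0.00712) and SPRED1 at 0.79 (limma adjusted p = 0.00547) were called higher. Of all tested probes 36.1% were called higher there and 4.72% lower. Of all called probes the share that was lower moved from 58.1% to 96.4% at 3–9 h, from 51.6% to 11.6% at 12–21 h and from 65.3% to 90.9% at 24–33 h. At 36–45 h PHLDA1 was at -2.35 and SPRY2 at -1.23 (limma adjusted p = 0.00119) against 0 h, both called, and DUSP5 was at 0.79 for its last step (limma adjusted p = 0.00598). PHLDA2 at 36–45 h was -0.52 from 0 h and no longer called (limma adjusted p = 0.185).

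**Figure D3:**
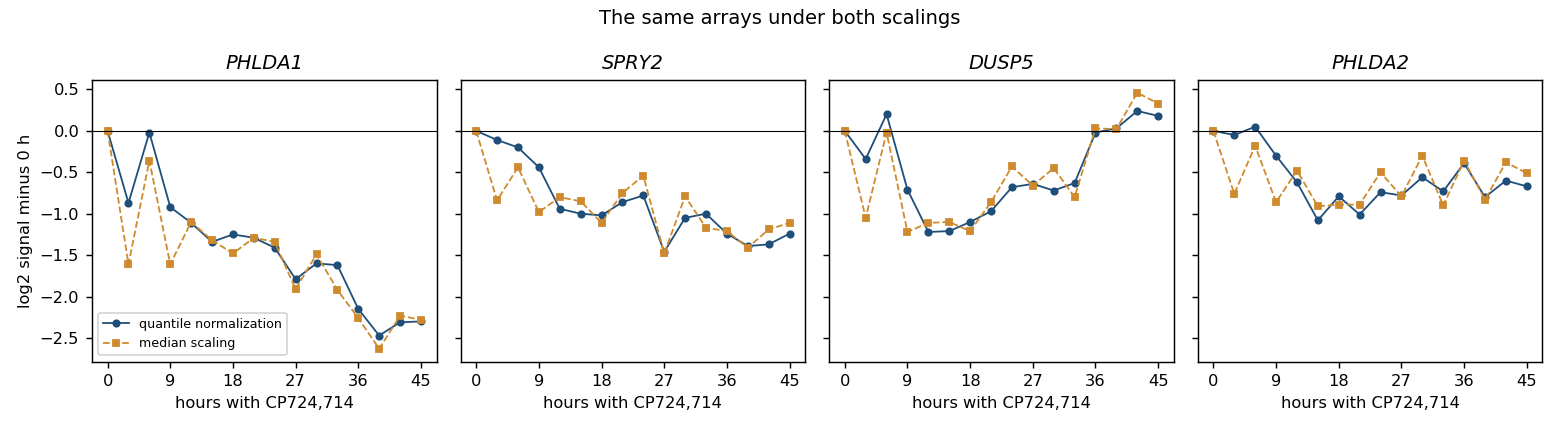
Log2 signal minus that of the 0 h array (y axis) against hours with CP724,714 (x axis), under quantile normalization (solid, circles) and median scaling (dashed, squares), with each point 1 array. The curves part at 3, 6 and 9 h, where median scaling puts all 4 genes lower, and under either scaling PHLDA1 is lowest at 39 h and DUSP5 is back near its 0 h level from 36 h on.

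By size alone, the 1.7-fold threshold of the study was taken here against the 0 h array, with quantile normalization. By it 4 members were lower at 1 or more time points, as were 9.47% of probes, and 1 was higher, as were 10.9%. PHLDA1 was past it at 3 h, where 2.35% of probes were, again at 9 h and at each time point from 12 h on, but not at 6 h. SPRY2 was past it at every time point from 12 h on, DUSP5 from 12 to 21 h, and PHLDA2 from 15 to 21 h, at 27 h and at 39 h. SPRED1 was past it, higher, at 24 h. Under median scaling, DUSP5 (-1.05), SPRY2 (-0.84), DUSP4 (-0.96) and SPRED1 (-0.96) were already past the threshold, lower, at 3 h, as was PHLDA1 (-1.61). The share of all probes past it was not computed under that scaling, so these 3 h values cannot be set against it. In the 3–9 h comparison under that scaling, 15.6% of all probes were called lower and 0.584% higher. The times of passing thus depended on the scaling. This threshold has no error term.

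**Figure D4:**
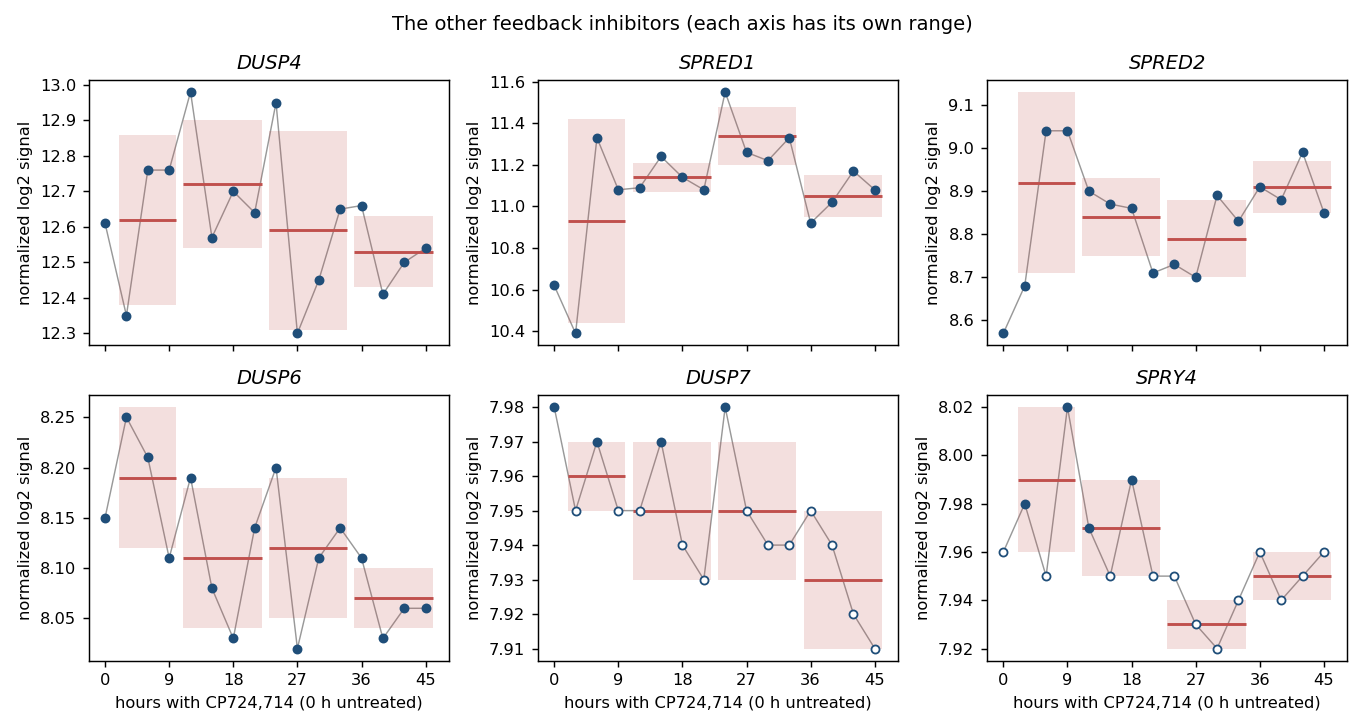
Normalized log2 signal (y axis, a separate range for each gene) of the other 6 members against hours with CP724,714 (x axis). Points are single arrays, open where not detected, and red lines with bands give the mean ± SD of each phase. DUSP6, DUSP7 and SPRY4 span at most 0.22, and DUSP7 and SPRY4 are detected on 4 arrays each.

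DUSP4, an inducible nuclear phosphatase for ERK and other MAP kinases, was the member whose high signal did not move past its scatter with quantile normalization. It was 12.61 at 0 h, 12.35, 12.76 and 12.76 at 3, 6 and 9 h, 12.98, 12.57, 12.70 and 12.64 from 12 to 21 h, 12.95, 12.30, 12.45 and 12.65 from 24 to 33 h, and 12.66, 12.41, 12.50 and 12.54 from 36 to 45 h. The untreated value lay inside the treated range, with 7 arrays below it and 8 above. The difference at 36–45 h was -0.08 (SE 0.21, 95% interval -0.51 to 0.36), and the time-course test gave a limma adjusted p of 0.42. A second DUSP4 probe was dim, at 8.10 to 8.44, and its course passed the test (limma adjusted p = 0.0349) with no linear trend (-0.12, limma adjusted p = 0.257). The 2 probes therefore disagreed on that test. Under median scaling the brighter probe was -0.96 from 0 h at 3 h. It was then called higher at 12–21 h than at 3–9 h (0.62, limma adjusted p = 0.00712), as were 36.1% of all probes.

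SPRED1 and SPRED2, the partners of neurofibromin, were higher on nearly all treated arrays than at 0 h. SPRED1 was 10.62 at 0 h, 10.39, 11.33 and 11.08 at 3, 6 and 9 h, 11.08 to 11.24 from 12 to 21 h, 11.22 to 11.55 from 24 to 33 h and 10.92 to 11.17 from 36 to 45 h, so that 14 of 15 treated arrays were above it and the 3 h array below. The difference at 36–45 h was 0.43 (SE 0.23, limma adjusted p = 0.195) and the time-course test gave a limma adjusted p of 0.0614. Without the 3 h array, SPRED1 was called higher at 3–9 h (0.59, limma adjusted p = 0.00626) and at 36–45 h (limma adjusted p = 0.0204). The shares of all probes called higher were then 13.7% and 17.6%, against 5.18% and 13.5% with all arrays. Under median scaling the 3–9 h difference of SPRED1 had the opposite sign, -0.18 (limma adjusted p = 0.787).

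SPRED2 was at its lowest, 8.57, at 0 h, and then 8.68, 9.04 and 9.04 at 3, 6 and 9 h, 8.71 to 8.90 from 12 to 21 h, 8.70 to 8.89 from 24 to 33 h and 8.85 to 8.99 from 36 to 45 h. All 15 treated arrays were above the untreated one. Its fitted course spanned 0.42 (limma adjusted p = 0.0342), but the differences from 0 h were 0.35 at 3–9 h (SE 0.14, limma adjusted p = 0.106) and 0.34 at 36–45 h (SE 0.13, limma adjusted p = 0.0703). Leaving out the 3 h array gave a called rise of 0.47 at 3–9 h (limma adjusted p = 0.00407), with 13.7% of all probes called higher. Median scaling gave 0.10 (limma adjusted p = 0.804). The 36–45 h difference was called without the 3 h array (limma adjusted p = 0.0154), without the 9 h array (limma adjusted p = 0.0434) and under both other background corrections. It was 0.54 and called without the probes whose detection p did not follow their intensity (limma adjusted p = 0.0453). Under median scaling it was 0.44 and not called (limma adjusted p = 0.104). The share of all probes called higher in this comparison was 17.6% without the 3 h array and 16.8% without the 9 h array. With all arrays it was 13.5%. Each of these differences rests on the single 0 h array.

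DUSP6, the cytoplasmic ERK phosphatase often read as a gauge of ERK output, gave little signal in these cells. It was detected on all 16 arrays, but between 8.02 and 8.25, where the dimmest detected probe of an array lay at 7.95 to 7.97. It was 8.15 at 0 h, with 11 treated arrays below that and 4 above. Its line change was -0.13 (SE 0.04, limma adjusted p = 0.0361), the call was lost when any of 6 arrays was left out and under median scaling (-0.07, limma adjusted p = 0.33), and the time-course test gave a limma adjusted p of 0.167. The size of this fall depended on the background correction. It was -0.47 with normexp from the signals alone (limma adjusted p = 0.0445) and -0.35 with no correction (limma adjusted p = 0.0423). It was -0.39 when probes whose detection p did not follow their intensity were left out beforehand (limma adjusted p = 0.0344), a setting added after the values were seen. At this signal a larger change of the transcript may not have been detectable.

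DUSP7, another cytoplasmic ERK phosphatase, and SPRY4, a Sprouty protein, were each detected on 4 arrays. DUSP7 ran from 7.91 to 7.98 and was detected at 0, 6, 15 and 24 h. Its line change of -0.04 (SE 0.01, limma adjusted p = 0.0341) covers mostly arrays on which it was not detected, and the call was lost when any of 4 arrays was left out. Under the same 3 settings it was -0.32, -0.20 and -0.12, each called (limma adjusted p = 0.027, 0.0283 and 0.0372). SPRY4 ran from 7.92 to 8.02, was detected at 3, 9, 12 and 18 h but not at 0 h, and had a line change of -0.04 (limma adjusted p = 0.149).

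Other genes of the pathway were called in both directions. Of 14 other MAP kinase and dual-specificity phosphatases tested, 4 were lower and 2 higher at 36–45 h than at 0 h, with a median difference of -0.01. Of 15 tested inhibitors from the same families or of receptor signaling, 2 were lower and 2 higher, with a median of -0.03, and of 19 ERK cascade genes 3 were lower and 5 higher, with a median of -0.01. Of 23 transcripts that ERK is known to induce, 8 were lower and 1 higher, with a median of -0.14. The median of all tested probes was 0.00, and the shares called lower and higher were those given above for this comparison.

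At 3–9 h the counts were 1 lower and 3 higher among the phosphatases, 1 and 1 among the inhibitors, 1 and 4 in the cascade, and 5 and 2 among the induced transcripts, where 7.17% of all probes were called lower and 5.18% higher. Under median scaling they were 5, 2, 2 and 10 lower and 0 higher in every list, with 15.6% of all probes lower and 0.584% higher. FOSL1, an AP-1 subunit, fell at 3–9 h by 0.87 (SE 0.25, limma adjusted p = 0.0287) and TRIB1, a pseudokinase, by 0.98 (SE 0.21, limma adjusted p = 0.00566), and both calls held under median scaling. ERRFI1, a feedback inhibitor that binds the kinase domains of EGFR and HER2, went the other way from PHLDA1. It rose by 0.76 at 3–9 h (SE 0.13, limma adjusted p = 0.00144), a call lost under median scaling (0.28, limma adjusted p = 0.534), and was 1.18 above 0 h at 36–45 h (SE 0.13, limma adjusted p = 6.85e-06), where the call held (1.12, limma adjusted p = 0.00137). PHLDA3, a relative of PHLDA1 known as an AKT inhibitor, differed by -0.76 (SE 0.24, limma adjusted p = 0.0497), and by -1.18 at the end.

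Among the phosphatases DUSP22 rose by 0.65 (SE 0.18, limma adjusted p = 0.0238). DUSP10, which acts on JNK and p38, went from 9.02 at 0 h to a mean of 8.16 at 3–9 h (limma adjusted p = 7.44e-05), but its deposited detection p did not follow its intensity on 13 arrays. In the cascade, MAP2K1, which encodes MEK, rose by 0.88 (SE 0.22, limma adjusted p = 0.0154) and NRAS by 0.66 (SE 0.11, limma adjusted p = 0.00116). Under median scaling the early rises of DUSP22 (0.26), MAP2K1 (0.40) and NRAS (0.32) were not called, with limma adjusted p of 0.545, 0.447 and 0.193.

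The tested genes whose 16 values were most like those of PHLDA1 were MICAL-L1 (Pearson r 0.95), MRPL54 (0.94), GJB5, INSIG1 and PHGDH (0.93 each). GJB5 encodes a connexin, INSIG1 a regulator of sterol synthesis and PHGDH the first enzyme of serine synthesis, which fell by 2.94 over 45 h on the fitted line. The genes most like DUSP6 were COL4A3BP (0.90), XPO6 (0.88), SH2BP1 (0.87), UBE2O (0.85) and RFP (0.85). Among the members themselves, the r with PHLDA1 was 0.64 for DUSP6 and 0.60 for PHLDA2, while DUSP5 had an r of -0.14 with it. The arrays are successive points of 1 course, so genes with any trend share part of these values.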

How the data were processed

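RNA of 16 parallel cultures was labelled per the labels with biotin and run on Illumina human Ref-8 v2 beadchips. The authors deposited the intensity of each probe before normalization and a detection p-value against the negative controls of its array; their methods state quantile normalization. Intensities were background-corrected and quantile normalized on the log2 scale with neqc (offset 16) in limma 3.58.1 (R 4.3.3). For 5.48% of probes, none of them a member's, the deposited detection p departed by over 0.05 on 1 or more arrays from the running median of 201 probes of like intensity. They were kept, and left out in an alternative chosen after seeing the data. The offset draws differences near background toward 0. Tests (lmFit and eBayes) covered every probe whose detection p was under 0.05 on at least 3 arrays. The models were natural cubic splines (4 degrees of freedom), straight lines and phase means, with Benjamini-Hochberg adjustment over 12321 probes and a threshold of 0.05. The phase model assumes that the lone 0 h array varies like the others. Code was tested on simulated data. Alternatives covered scaling, background, detection filter, spline, batch and each array left out.

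The members, the gene lists and the tests were chosen with earlier results of these data known. Genes named are the members, in each list up to 2 genes with the largest called difference at 3–9 h, the 5 most like PHLDA1 and DUSP6, and ERBB2. Members were matched to RefSeq by symbol (10 of 10), and no sequences of probes were used.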

Additional observations from a re-analysis of the deposited data

How the results depend on the processing

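Of 16 called values of single genes, recomputed 364 times under other settings (fits with a block or to one side of the background step not counted), 339 kept direction and call, 25 lost the call and 0 reversed, and of 1266 recomputed uncalled values 20 became called. The sizes of the DUSP6 and DUSP7 line changes grew under the other background corrections. Many of the recomputed values came from leaving out 1 array, with the scaling unchanged. Under median scaling the 4 falls at 12–21 h lost their calls. So did PHLDA2 against 0 h at 36–45 h, the DUSP6 line change and SPRY2 between 12–21 h and 36–45 h. That scaling gave 1 member called at 3–9 h, where 15.6% of all probes were called lower and 0.584% higher. It gave 2 at 12–21 h, both higher, where 4.72% were called lower and 36.1% higher. Without a detection filter 2 linear trends remained called. With a block for each run of 4 successive arrays, 0 of 10 linear trends were called by limma (1 at an unadjusted p under 0.05), as for 0 of all probes (1049 unadjusted). PHLDA1 was then at -1.16 (limma adjusted p = 0.65) and SPRY2 at -0.52 (limma adjusted p = 0.783). An effect of such runs of arrays cannot be told apart from the course itself. Leaving out 1 array at a time gave 4 to 6 time-dependent members, 2 to 5 linear trends (2 without the 6, 42 or 45 h array), 0 to 2 called at 3–9 h (2 without 3 h, 1 without 6 h), 4 to 5 at 12–21 h, 0 to 1 at 24–33 h (DUSP5, without 6 h or 9 h), 2 to 3 at 36–45 h against 24–33 h, 3 to 5 against 0 h (5 without 3 h) and 2 to 3 against 12–21 h. The shares of all probes called moved as well. Without the 3 h array 14.5% were lower and 13.7% higher at 3–9 h, against 7.17% and 5.18% with all arrays. At 36–45 h against 0 h they were then 17.9% and 17.6%, against 13.8% and 13.5%. Without the 9 h array 24.9% were lower and 22.1% higher at 12–21 h, against 20.3% and 19%. Without the 6 h array PHLDA1 at 12–21 h was -0.35 (limma adjusted p = 0.032). The SPRY2 difference between 36–45 h and 12–21 h lost its call without any of 6 arrays. The causes were not tested.

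No paired analysis was possible because no time point was measured on more than 1 array. Contrasts against 0 h cannot be computed without that array. Signal near background limits what DUSP6, DUSP7 and SPRY4 can show, and 1 array per time point limits the precision of all values.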
